A study of Mus musculus with 5 samples.

Results

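Mitochondrial ribosomal protein genes were examined in hematopoietic stem cells (HSCs) that had lost or kept the RNA-binding protein SYNCRIP. The members were the genes whose symbol starts with Mrpl or Mrps followed by a digit, and 77 of the 24046 gene symbols in the deposited table met that rule. All 77 also passed the filter on low values (a normalized read count of at least 10 in at least 2 libraries), as did 13661 genes in total. By the nomenclature of the mitochondrial ribosome, 50 members encode proteins of the large subunit and 26 of the small subunit. Mrps30 and Mrps18a, despite their names, belong to the large subunit, and Mrps36 encodes a component of the alpha-ketoglutarate dehydrogenase complex (KGD4) that was counted with neither. A further large subunit gene, Mrpl58, stood in the table under its older symbol Ict1 and so fell outside the rule.

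Bulk RNA-seq was made from 3 WT libraries (WT 1, WT 2 and WT 3, genotype Syncrip flox/flox, Mx1 Cre-) and 2 KO libraries (KO 2 and KO 3, genotype Syncrip flox/flox, Mx1 Cre+). Cre under the Mx1 promoter is induced by interferon, and recipients of both genotypes were given the interferon inducer polyinosinic:polycytidylic acid (pIpC), so that WT cells had the same floxed alleles and the same injections. Donor marrow and lethally irradiated CD45.1 recipients came from mice of 6 to 8 weeks, and HSCs were sorted 9 weeks after transplantation and 3 weeks after pIpC in the CD45.2+, Lin-, Sca1+, cKit+, CD150+, CD48- gate. Mx1-Cre acts in many interferon-responsive cells, so excision was not limited to HSCs. Nothing in the labels said whether libraries came from separate mice, and p-values measure the spread between libraries, which may in part be technical.

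Mitochondria carry their own ribosome, which translates the few respiratory chain proteins encoded in mitochondrial DNA. Its RNA is mitochondrial, whereas every one of its proteins is encoded in the nucleus, translated in the cytosol and imported. The proteins fall into those with a counterpart in the bacterial ribosome and those found only in mitochondria. HSCs are known to keep mitochondrial respiration low and to raise it as they leave quiescence.

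The deletion was checked first. Syncrip had a normalized read count of 1944, 1439.8 and 1794 in the WT libraries and of 294 and 343 in the KO libraries, a difference of -2.43 on the log2 scale (SE 0.22, adjusted p = 0.0352 by limma). Libraries held 12539599 (KO 3) to 22779536 (WT 3) reads, with both KO libraries below every WT library. The 10 HSC gate genes examined, Kit and Slamf1 among them, had reads in every library. Granule genes of neutrophils (10 genes) took 6.03 to 7.20% of reads in WT, 5.34% in KO 2 and 2.60% in KO 3. Within that list the genes differed. Ltf, Camp, Ngp and Lcn2 lay below all WT values in both KO libraries. S100a8, S100a9, Mpo and Ctsg lay below all WT values in KO 3 and within the WT range in KO 2. Elane and Prtn3 were highest in KO 2 and within the WT range in KO 3. B cell genes (6) took 0.00283 to 0.00389% of reads in WT and 0.00309 to 0.00341% in KO, and erythroid genes (8) took 0.0591 to 0.0792% and 0.0744 to 0.104%. Genes that the gate should lack (7, Cd48 and Itgam among them) took 0.0515 to 0.0730% in WT and 0.0145 to 0.0344% in KO. KO 2 stood apart through adipose genes: 10 white adipocyte genes took 0.109% of its reads, against 0.00115 to 0.00396% in the other libraries, and 5 brown adipocyte genes took 0.0577%, against at most 0.00122%. The value was highest in KO 2 for 9 of the 10 and 4 of the 5 genes. Adipoq and Ucp1 were at 0 in KO 3 and had normalized read counts of 959 and 5622 in KO 2. Member counts are therefore also given for each KO library alone.

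The members lie on 17 chromosomes, and the region around the transcription start was read for those whose fold changes lay at the ends of the range. RefSeq start regions (300 bases, build GRCm38.p6) were matched for 68 of the 77 members. Those of the 3 members with the highest and the 3 with the lowest log2 fold change are printed 5′ to 3′ on the strand of the gene, to show what the promoters of members at both ends look like. Capitals mark matches, on either strand, to the core motifs of NRF1 (CGCANGCG), of ETS family factors (CCGGAAG), of YY1 (AAGATGGC) and to the E-box (CACGTG). NRF1 and the ETS factor GABPA are known regulators of nuclear genes for mitochondrial proteins. The regions are chr14:57825989-57826288 (Mrpl57, plus strand), chr8:71464676-71464975 (Mrpl34, plus), chr2:130563507-130563806 (Mrps26, plus), chr5:96209865-96210164 (Mrpl1, plus), chr13:14612988-14613287 (Mrpl32, minus) and chr4:49521034-49521333 (Mrpl50, minus). The RefSeq start of Mrpl1 lies 622 bases from its GENCODE start.
Mrpl57: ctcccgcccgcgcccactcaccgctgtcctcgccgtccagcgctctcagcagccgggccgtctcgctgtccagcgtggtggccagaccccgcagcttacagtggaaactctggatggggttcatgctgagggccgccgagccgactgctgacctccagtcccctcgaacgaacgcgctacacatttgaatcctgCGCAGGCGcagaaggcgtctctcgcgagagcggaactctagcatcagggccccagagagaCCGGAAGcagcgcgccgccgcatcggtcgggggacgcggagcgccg
Mrpl34: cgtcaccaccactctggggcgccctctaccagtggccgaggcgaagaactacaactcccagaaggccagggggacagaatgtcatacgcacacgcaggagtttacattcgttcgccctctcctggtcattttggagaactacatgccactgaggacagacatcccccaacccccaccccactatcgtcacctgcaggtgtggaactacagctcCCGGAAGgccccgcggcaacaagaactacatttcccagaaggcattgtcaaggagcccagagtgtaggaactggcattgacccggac
Mrps26: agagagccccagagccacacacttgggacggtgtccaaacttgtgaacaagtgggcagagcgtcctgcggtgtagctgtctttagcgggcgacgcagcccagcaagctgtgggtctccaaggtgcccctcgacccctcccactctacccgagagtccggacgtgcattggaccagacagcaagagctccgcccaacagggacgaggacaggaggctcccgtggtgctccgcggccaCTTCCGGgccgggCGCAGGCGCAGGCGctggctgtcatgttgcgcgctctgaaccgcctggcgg
Mrpl1: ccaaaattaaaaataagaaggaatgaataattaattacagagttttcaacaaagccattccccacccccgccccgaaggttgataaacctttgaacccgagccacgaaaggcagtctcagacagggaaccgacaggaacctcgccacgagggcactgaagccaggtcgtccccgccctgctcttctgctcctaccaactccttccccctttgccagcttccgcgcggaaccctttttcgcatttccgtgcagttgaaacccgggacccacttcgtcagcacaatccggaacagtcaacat
Mrpl32: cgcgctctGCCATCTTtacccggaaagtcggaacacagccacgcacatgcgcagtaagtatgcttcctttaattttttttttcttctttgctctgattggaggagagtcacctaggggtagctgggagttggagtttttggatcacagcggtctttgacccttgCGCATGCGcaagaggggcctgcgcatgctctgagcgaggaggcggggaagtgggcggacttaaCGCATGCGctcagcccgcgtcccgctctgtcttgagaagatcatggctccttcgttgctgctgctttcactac
Mrpl50: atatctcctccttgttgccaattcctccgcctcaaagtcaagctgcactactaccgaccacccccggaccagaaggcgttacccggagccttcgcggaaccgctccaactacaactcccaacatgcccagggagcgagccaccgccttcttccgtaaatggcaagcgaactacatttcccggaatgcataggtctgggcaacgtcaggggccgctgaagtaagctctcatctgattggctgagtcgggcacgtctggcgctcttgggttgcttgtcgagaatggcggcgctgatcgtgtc

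Each of the 3 members with the highest fold change had an ETS core in the window, and Mrpl57 and Mrps26 also had an NRF1 core. Of the 3 with the lowest, Mrpl32 had an NRF1 and a YY1 core, and Mrpl1 and Mrpl50 had a match to none of the 4 motifs. Over the 68 member regions, 33.8% held the ETS core, 29.4% the NRF1 core, 17.6% the YY1 core and 7.35% the E-box. Over 9689 regions of protein-coding genes tested, the shares were 18%, 17.3%, 4.68% and 10.1%. Members with an ETS core (23) had a median log2 fold change of 0.31 and those without (45) of 0.18. For NRF1 the medians were 0.21 (20 members) and 0.27 (48 members), and for YY1 both were 0.25 (12 and 56 members). The ranges overlapped, from -0.55 to 0.91 with an ETS core and from -0.88 to 0.84 without. A motif match describes the sequence alone, and binding was not measured.

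In WT HSCs the members were expressed at widely different levels. Per kilobase of exon, the WT mean ranged from 42.1 (Mrpl23) to 2095 (Mrpl18) normalized reads, a 49.7-fold span, with a median of 426. The large subunit genes had a median of 517 and the small subunit genes of 362. Mrpl18, a protein of the central protuberance of the large subunit, stood at 2092, 1946 and 2246 per kilobase in WT, at 2465 in KO 2 and at 1875 in KO 3. Its KO values lay on either side of the WT range. Mrpl28, a large subunit protein with a bacterial counterpart, stood at 1918, 1733 and 2116 per kilobase in WT and at 2832 and 2770.0 in KO 2 and KO 3. Mrpl12, the stalk protein that recruits translation factors and is also known to bind the mitochondrial RNA polymerase, stood at 1552, 1557 and 1806 per kilobase in WT and at 2594 and 2687 in KO. The groups did not overlap for either gene. The lowest levels were those of Mrpl23, which lies at the exit of the nascent peptide tunnel, of Mrpl47 and of Mrps35. Mrpl23 stood at 46.0, 38.9 and 41.4 per kilobase in WT against 72.6 and 78.4 in KO. In this order, 73 of the 76 neighbouring genes had overlapping WT ranges, so that neighbours mostly did not differ beyond their spread. Exon length was the union of GENCODE M21 exons, which includes rare long transcripts, and with the longest transcript in its place 4 of the 5 highest and 2 of the 3 lowest genes stayed in those positions.

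**Figure D1:**
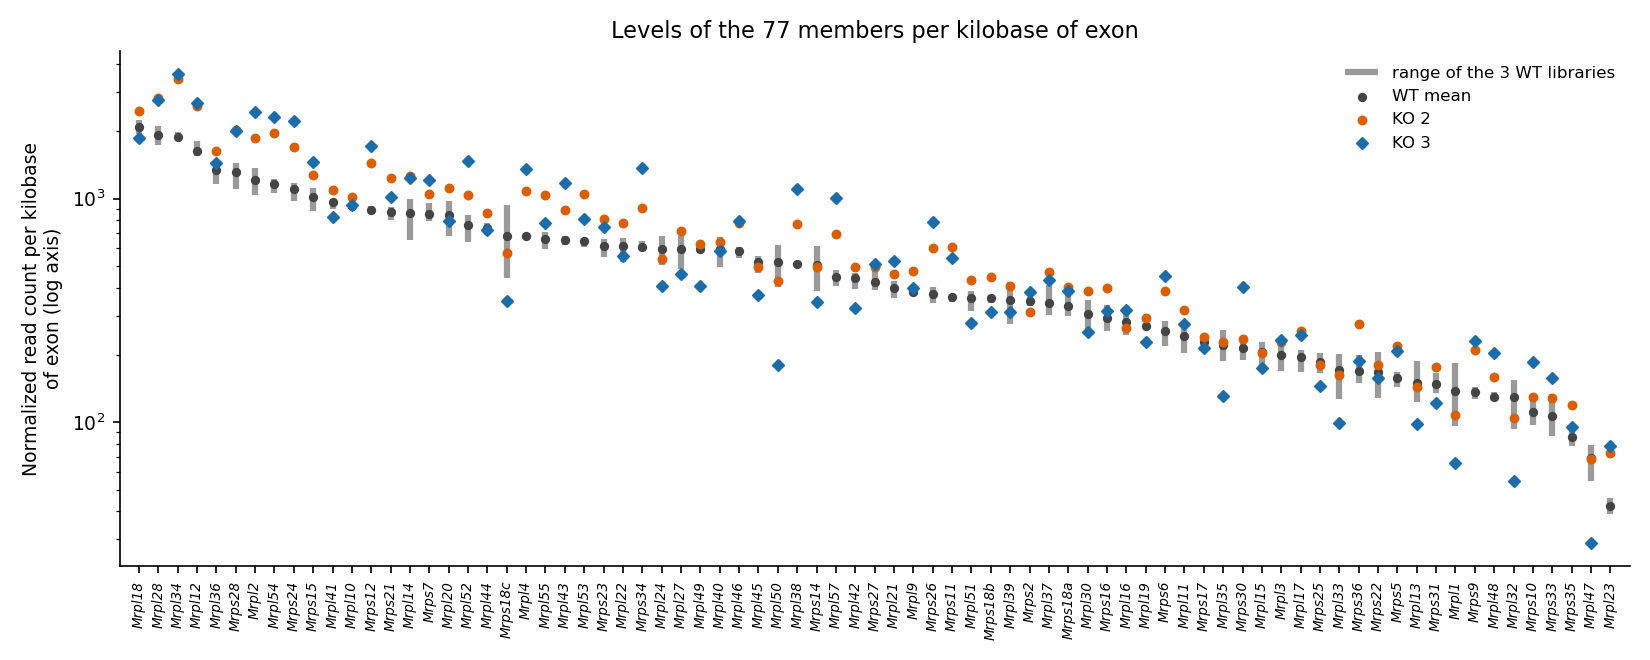
Level of each of the 77 members, in normalized read count per kilobase of exon on a log axis, ordered by the WT mean. Grey bars span the 3 WT libraries, dark points are WT means, and orange and blue symbols are KO 2 and KO 3. Mrpl18 is highest at a WT mean of 2095 and Mrpl23 lowest at 42.1.

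As a group, the members took a larger share of reads in KO than in WT. They made up 0.492%, 0.407% and 0.464% of reads in WT 1, WT 2 and WT 3, and 0.574% and 0.559% in KO 2 and KO 3, so the groups did not overlap. With 3 against 2 libraries the smallest p that an exact permutation test can reach is 0.1. In bulk RNA, more cells that express these genes and more of their RNA per cell cannot be told apart. On the log2(value + 1) scale, which slightly understates changes of low genes, the median log2 fold change of the 77 members was 0.28, against 0.02 over all 13661 genes tested. The fold change was above 0 for 55 members and below 0 for 22.

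No member passed limma at an adjusted p under 0.05, and over all genes limma called 0.00732%. The lowest adjusted p among the members was 0.0815, shared by 6 of them. At an unadjusted p under 0.05, 23 members (29.9%) were higher and 1 (1.30%) was lower in KO, against 13.3% and 14.5% of all genes tested. DESeq2 on the recovered read counts called 19 members (24.7%) higher and 0 lower at an adjusted p under 0.05, against 9.54% and 9.81% of the 11837 genes to which it gave an adjusted p. edgeR's quasi-likelihood test called 0, with 21 higher and 0 lower at an unadjusted p under 0.05 (13.4% and 13.8% of all genes). Without any model, both KO values lay above all 3 WT values for 39 members (50.6%, against 23.9% of all genes) and below them for 0 members (against 23.2%). Differences were moderate: no member reached 2-fold in either direction, and the SE of the log2 fold changes ranged from 0.17 to 0.40 with a median of 0.21.

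**Figure D2:**
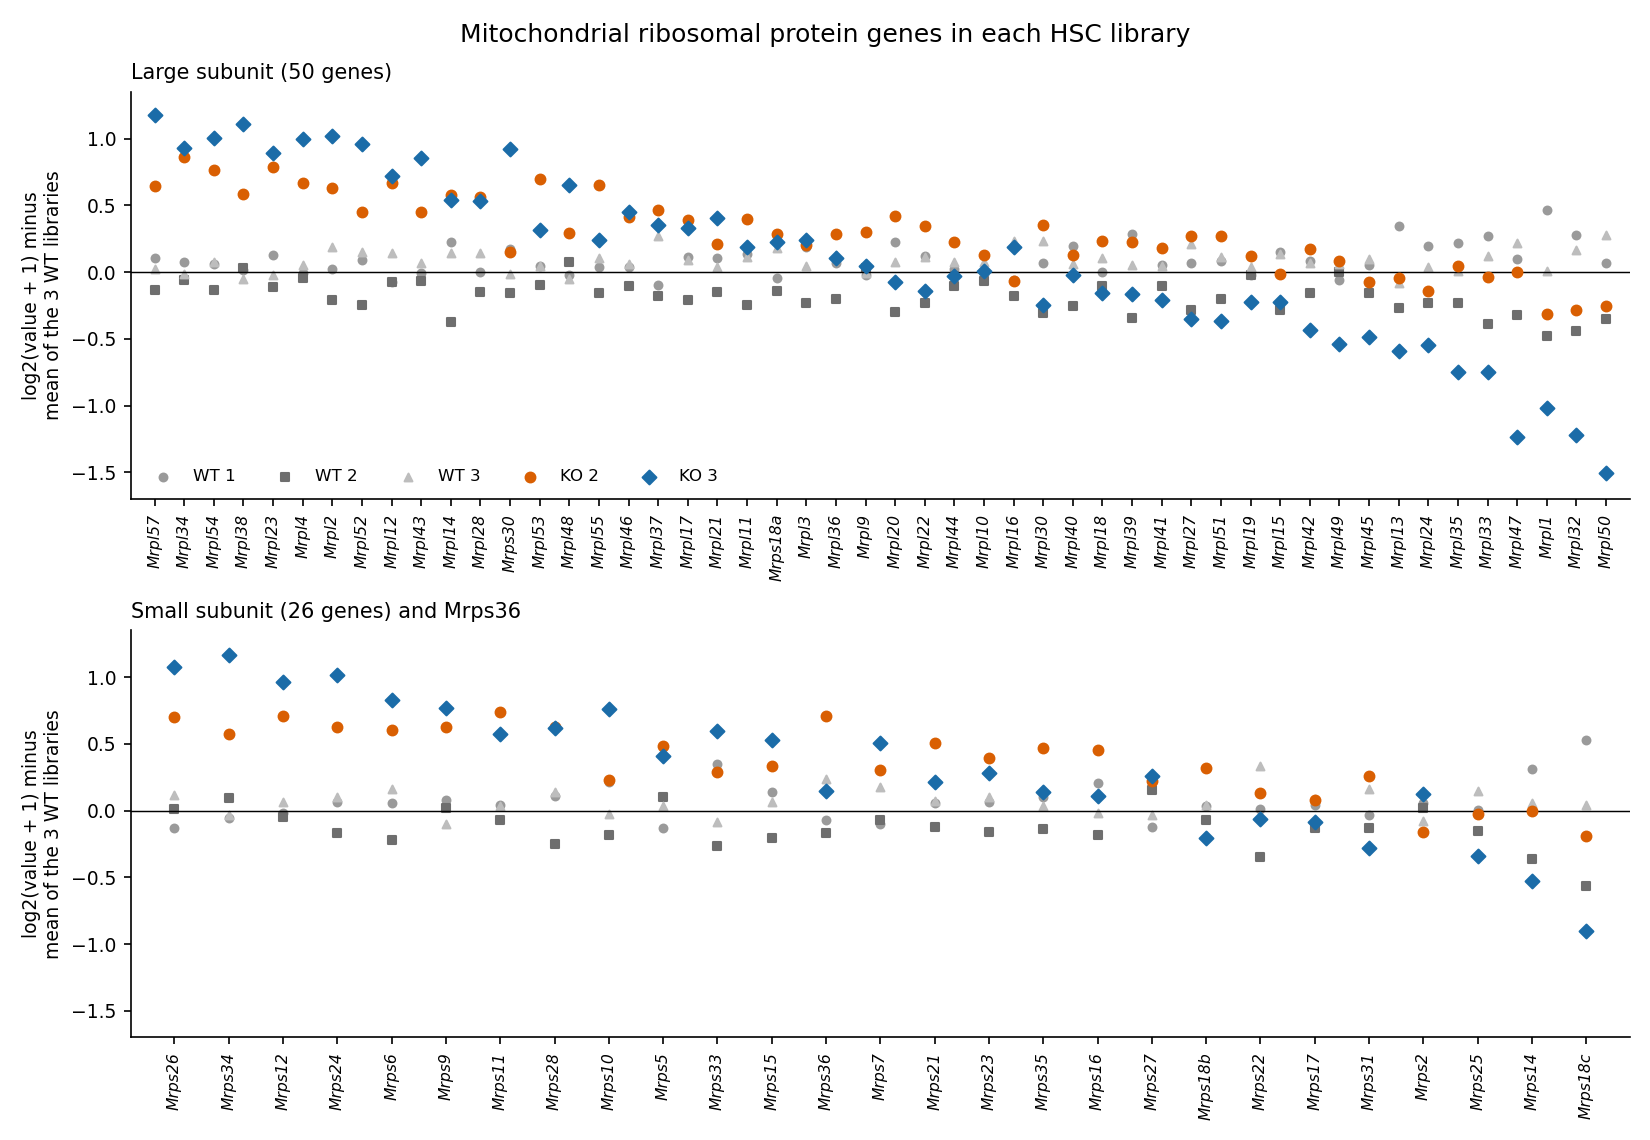
Every member in every library, as log2(value + 1) minus the mean of the 3 WT libraries, with members ordered by log2 fold change within the large subunit (upper panel) and the small subunit with Mrps36 (lower panel). Grey symbols are WT libraries, orange circles KO 2 and blue diamonds KO 3. Both KO symbols lie above all WT symbols for 39 of 77 members, and KO 3 reaches further than KO 2 at either end.

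The 6 members with the highest fold change encode structural proteins of both subunits. Mrpl57 had a normalized read count of 1425, 1206 and 1342 in WT and of 2065 and 2993 in KO. Mrpl34, which has a bacterial counterpart, counted 1210.5, 1102 and 1135 in WT and 2087 and 2190.0 in KO. Mrps26 counted 1484, 1635 and 1761 in WT and 2634 and 3428 in KO. In all 3 genes the lower KO library exceeded the highest WT library. Mrpl54 counted 997, 873 and 1007 in WT and 1629 and 1918 in KO. Mrps34 counted 1209, 1342 and 1232 in WT and 1879 and 2831 in KO. Mrpl38 counted 1325, 1335 and 1264 in WT and 1965 and 2828 in KO. These 3, specific to mitochondria like Mrpl57 and Mrps26, were also separate between groups, and KO 3 was the higher KO library in all 6. Log2 fold changes of the 6 genes ran from 0.85 (Mrpl38, SE 0.21) to 0.91 (Mrpl57, SE 0.21), with limma adjusted p values of 0.0815 to 0.0818. DESeq2 called each of them, with adjusted p values of 0.000158 (Mrpl34) to 0.00506 (Mrps34). Mrps34 shares 77.8% of its exon bases with the neighbouring genes Mapk8ip3 and Nme3, and its reads may be split between them.

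The 6 members with the lowest fold change did not separate the groups. Mrpl50, a protein found only in mitochondria, counted 1138, 851 and 1315 in WT, 909 in KO 2 and 381 in KO 3. Mrpl32, which is known to need cleavage by the m-AAA protease before it joins the ribosome, counted 768, 465 and 709.6 in WT, 520.1 in KO 2 and 272 in KO 3. Mrpl1, which in bacteria forms the stalk where tRNA leaves, counted 793, 412 and 576 in WT, 462 in KO 2 and 282 in KO 3. In these genes KO 2 lay within the WT range and KO 3 below it. Mrpl47 counted 322, 241 and 351 in WT, 302 in KO 2 and 128 in KO 3. Mrps18c counted 1013, 474 and 722 in WT, 615 in KO 2 and 375 in KO 3. Mrpl33 counted 1479, 936 and 1336 in WT, 1198 in KO 2 and 729 in KO 3. The pattern was the same, with WT 2 lowest of the WT libraries in each gene. Log2 fold changes were -0.88 (SE 0.37) for Mrpl50, -0.75 (SE 0.35) for Mrpl32, -0.67 (SE 0.34) for Mrpl1, -0.61 (SE 0.40) for Mrpl47, -0.55 (SE 0.36) for Mrps18c and -0.39 (SE 0.29) for Mrpl33, with limma adjusted p values of 0.163 to 0.391. DESeq2 called none of the 6 (adjusted p of 0.139 to 0.434).

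**Figure D3:**
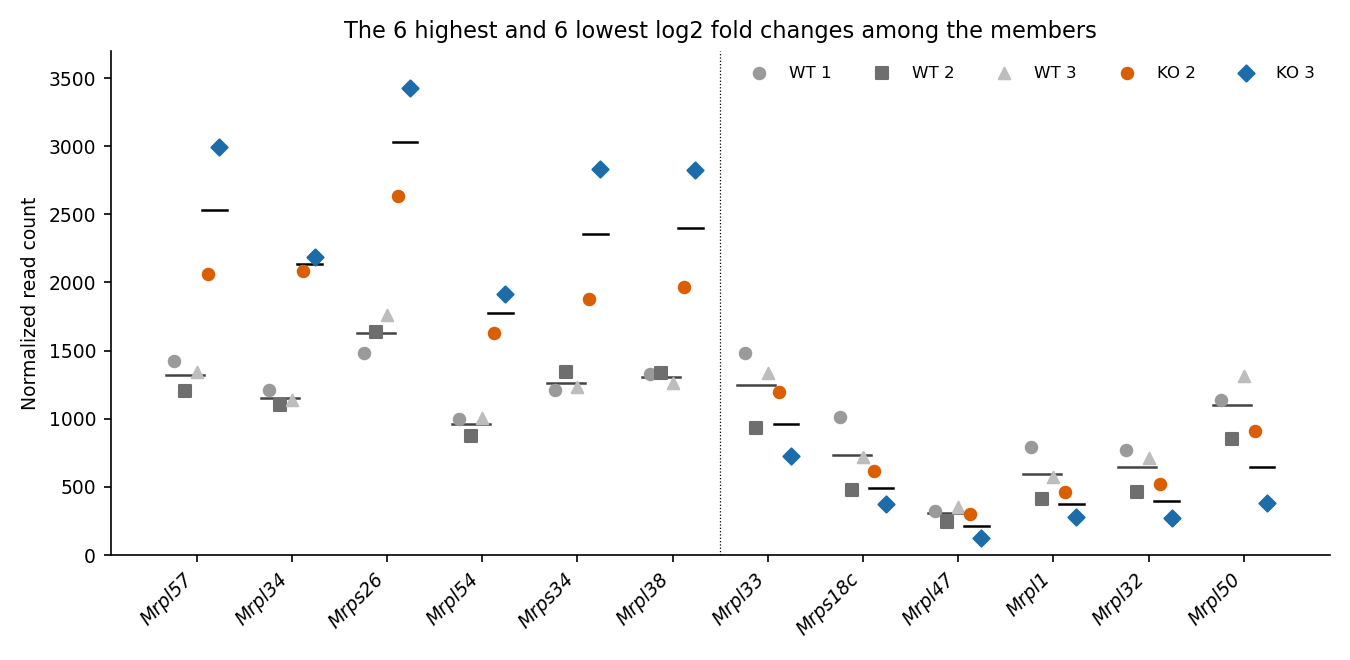
Normalized read counts of the 6 members with the highest (left of the dotted line) and the 6 with the lowest log2 fold change (right). Symbols are single libraries and horizontal bars are group means. On the left both KO libraries lie above the WT libraries in each gene, and on the right KO 2 lies among the WT libraries and KO 3 below them.

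Other members showed the range between these ends. Mrpl12 counted 2378, 2385 and 2766 in WT and 3974 and 4117 in KO, and had a log2 fold change of 0.69 (SE 0.17, limma adjusted p = 0.0818, DESeq2 adjusted p = 0.00385). Mrpl28 counted 2647, 2391 and 2919.6 in WT and 3908 and 3823 in KO, a log2 fold change of 0.55 (SE 0.17, limma adjusted p = 0.101, DESeq2 adjusted p = 0.0265). Mrpl23 counted 225, 190.1 and 202 in WT and 355 and 383 in KO, a log2 fold change of 0.84 (SE 0.27, limma adjusted p = 0.106, DESeq2 adjusted p = 0.0291). These 3 genes separated the groups and were close between the KO libraries. With length and GC trends removed, Mrpl12 stood at 0.27 and Mrpl23 at 0.54, both still separate, and Mrpl28 at -0.05 with overlapping groups. Mrpl36 counted 1632, 1353 and 1693 in WT and 1894 and 1671 in KO, and Mrps35 counted 798, 675 and 761 in WT and 1031 and 820.1 in KO. KO 3 lay among the WT values for Mrpl36 and just above them for Mrps35, and neither gene was called by limma or DESeq2. Mrps36, the dehydrogenase component, counted 205, 192 and 254 in WT, 352 in KO 2 and 238 in KO 3, with overlapping groups. With the trends removed, Mrpl36, Mrps35 and Mrps36 stood at 0.16, 0.70 and 0.67. In that setting each had both KO values above all WT values, and limma called none of them.

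The Mrps18 paralogues occupy different places in the ribosome, Mrps18a in the large subunit and Mrps18b and Mrps18c in the small, and their uncorrected values differed. Mrps18a counted 1185, 1104 and 1383 in WT and 1485 and 1429 in KO, with a log2 fold change of 0.26 (SE 0.19). Mrps18b counted 768, 715 and 774 in WT, 936 in KO 2 and 652 in KO 3, with a log2 fold change of 0.05 (SE 0.23). Mrps18c was lowest in KO 3, as given above, at -0.55 (SE 0.36). None was called, and differences among the paralogues were not tested. With length and GC trends removed the values lay together, at -0.12 for Mrps18a and -0.11 for both Mrps18b and Mrps18c.

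Mrpl21 and Mrps5 are the members on the list of transcripts that the study took as SYNCRIP targets from RNA editing by a SYNCRIP-ADAR fusion. Mrpl21 counted 864, 723 and 823 in WT and 926 and 1062 in KO, a log2 fold change of 0.31 (SE 0.20, limma adjusted p = 0.347). Mrps5 counted 942, 1106 and 1056 in WT and 1447 and 1373 in KO, a log2 fold change of 0.45 (SE 0.19, limma adjusted p = 0.164). Both genes had higher values in each KO library than in any WT library, and DESeq2 called neither (adjusted p of 0.327 and 0.0968). With length and GC trends removed, their log2 fold changes were 0.10 and 0.65, and the groups overlapped for Mrpl21.

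Both subunits held more members with higher than with lower values in KO. In the large subunit 34 of 50 members had a fold change above 0, 23 had both KO values above all WT values, and the median log2 fold change was 0.17. In the small subunit the figures were 20 of 26, 16 and 0.38. Over all genes tested, 23.9% had both KO values above all WT values. DESeq2 called 11 large and 8 small subunit genes higher, against 9.54% of the genes it adjusted. Split by origin, large subunit proteins with a bacterial counterpart had a median of 0.14 (30 genes) and those specific to mitochondria of 0.33 (20 genes). In the small subunit the order was the other way, 0.44 (16 genes) against 0.27 (10 genes). With length and GC trends removed, both large subunit classes had a median of 0.22, and the small subunit classes stood at 0.38 and 0.18. The difference between subunits was not tested, since genes of a library are not replicates. Among the 59 members that share at most 10% of their exon bases with another gene, the median was 0.28 and 29 had both KO values above all WT values.

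The KO libraries had similar medians and different spreads. Relative to the WT mean, the members had a median log2 difference of 0.30 in KO 2 and 0.19 in KO 3. The SD over members was 0.28 in KO 2 and 0.62 in KO 3, against 0.13 to 0.20 for each WT library set against the others. Over all genes tested KO 3 was also the widest, with an SD of 1.15, against 0.85 in KO 2 and 0.69 to 0.78 in WT. In KO 2, 56 members (72.7%) lay above all WT values and 1 (1.30%) below, against 32.8% and 30.9% of all genes. In KO 3, 42 members (54.5%) lay above and 21 (27.3%) below, against 40.0% and 38.3% of all genes. Of the 21 below the WT range in KO 3, 9 were above it in KO 2 and 12 were within it. Without KO 2, limma called 15 members (19.5%) higher and 3 (3.90%) lower, against 9.90% and 12.2% of all genes in that fit, where the lone KO library is assumed to vary like the WT libraries. The 3 lower were Mrpl50, Mrpl32 and Mrpl47, at log2 fold changes of -1.51, -1.22 and -1.23 (limma adjusted p of 0.0171, 0.045 and 0.0488). Without KO 3, limma called 0 members (18 higher and 0 lower at an unadjusted p under 0.05, against 5.74% and 8.26% of all genes), and 56 lay above all WT values. KO 2 is the library with adipose transcripts and KO 3 the library with the lowest depth and the lowest neutrophil share, and the part of either in the members' values was not tested.

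WT 2 held the lowest WT value for 65 of the 77 members and the lowest of all 5 libraries for 45. Its median log2 difference from the other WT libraries was -0.23, against 0.09 for WT 1 and 0.10 for WT 3. Over all genes tested these medians were 0.020 for WT 2, 0.015 for WT 1 and 0.024 for WT 3. Without WT 2 the median log2 fold change of the members was 0.19, 39 members had both KO values above the remaining WT values and 11 had both below, against 29.2% and 28.8% of all genes.

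The members' differences followed the GC content of their transcripts, as did those of other genes. The GC content of the longest GENCODE M21 transcript ranged from 38.6 to 60.4% over the members, with a median of 49.7% against 49.9% for all genes tested, whereas their median transcript length was 1849 bases against 3257. Over the 77 members, Pearson's r between GC content and log2 fold change was 0.58 (0.59 in KO 2 and 0.54 in KO 3), and over 13515 genes it was 0.54. Single WT libraries set against the others also gave correlations over the members, of -0.39 for WT 1, 0.34 for WT 2 and 0.05 for WT 3. These are descriptions across genes measured in the same 5 libraries. All 15 members with a GC content of at least 55% had both KO values above all WT values, at a median log2 fold change of 0.82, where all genes of that content had a median of 0.54 and 52.8% were so placed. From 50 to 55%, the median was 0.34 and 13 of 21 members were so placed (all genes 0.18 and 29.1%). From 45 to 50% it was 0.10 with 7 of 21 (all genes -0.16 and 12.1%). Below 45% it was -0.03 with 4 of 20 (all genes -0.58 and 3.47%). In each of the 4 ranges the members' median was thus above that of all genes, in either KO library.

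**Figure D4:**
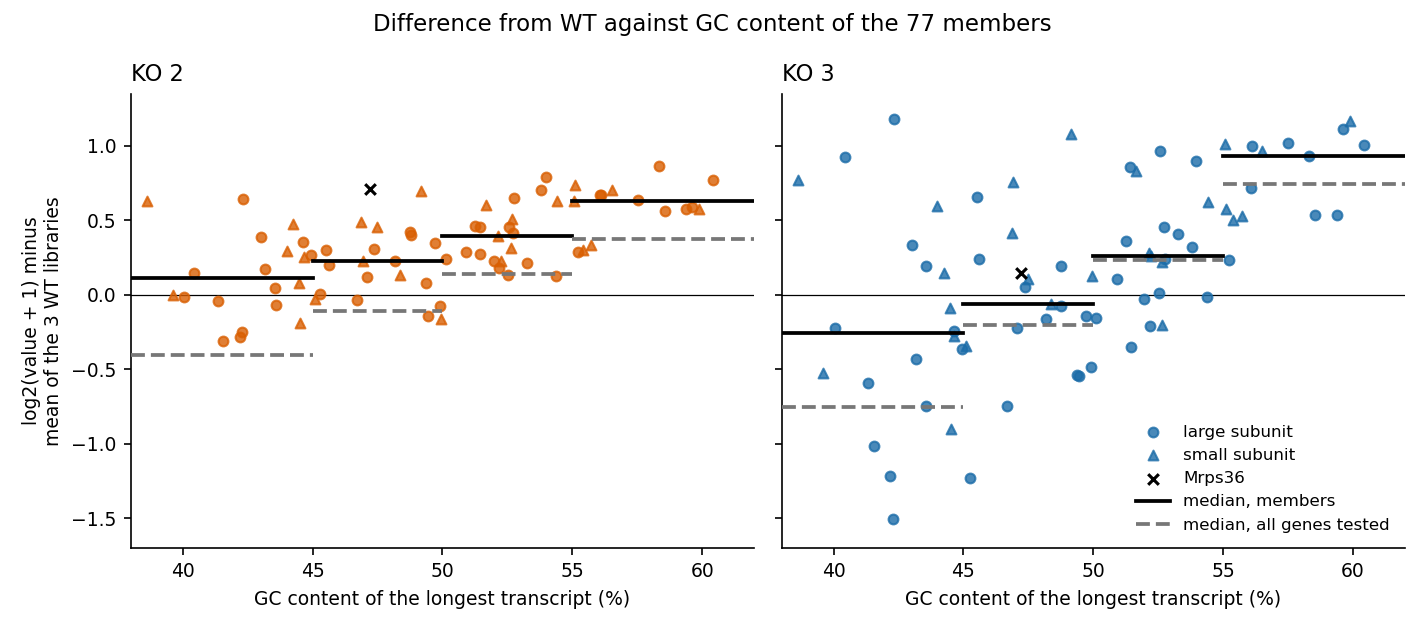
Log2 difference from the WT mean of each member against the GC content of its longest transcript, in KO 2 (left) and KO 3 (right). Circles are large subunit genes, triangles small subunit genes and the cross Mrps36, and solid and dashed lines are medians of the members and of all genes tested within 4 ranges of GC content. The solid line lies above the dashed line in each range, and the lowest values in KO 3 belong to members below 50%.

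When each library was corrected for linear trends on transcript length (log2) and GC content, the median of the members was 0.27 and that of all genes was -0.02. Both KO values then lay above all WT values for 44 members (57.1%, against 17.2% of all genes) and below for 1 (1.30%, against 18.6%), and 30 of the 39 members separated before remained so. limma called 0 members in that fit, with 26 higher and 0 lower at an unadjusted p under 0.05 (8.07% and 9.18% of all genes). Syncrip stood at -1.53 instead of -2.43. The 6 lowest members moved towards 0, Mrpl50 to -0.32 and Mrpl1 to -0.07, and 4 of the 6 highest stood lower, Mrpl34 at 0.34, Mrpl54 and Mrpl38 at 0.17 and Mrps34 at 0.16, with overlapping groups for Mrpl38. The other 2 of the 6 stood higher, Mrpl57 from 0.91 to 1.46 and Mrps26 from 0.89 to 0.93. After the correction, Pearson's r between GC content and log2 fold change over the 77 members was -0.35, against 0.58 before it.

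Other genes of the mitochondrial translation machinery were taken from 5 lists with 68 genes. limma called 0 of them, with 14 higher and 9 lower at an unadjusted p under 0.05, and 28 had both KO values above and 13 both below all WT values. Over all genes the shares were 13.3% and 14.5% at that p and 23.9% and 23.2% for placement above and below. The median log2 fold change of the 68 genes was 0.12, and DESeq2 called 10 higher and 2 lower, against 9.54% and 9.81% of the genes it adjusted. With length and GC trends removed, 22 lay above and 14 below (17.2% and 18.6% of all genes) and the median was 0.05. Of 5 further ribosomal subunits, 2 lay above and 1 below. Gadd45gip1 (CRIF1), a large subunit gene, counted 2236, 2438 and 2471 in WT and 3306 and 4946 in KO, while Ptcd3, a small subunit gene, counted 1918, 1832 and 2521 in WT and 1597 and 943 in KO. Their log2 fold changes were 0.76 (SE 0.21) and -0.75 (SE 0.26), with limma adjusted p values of 0.0865 and 0.119, and stood at 0.41 and -0.18 with the trends removed.

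Of 9 translation factors, 3 lay above and 3 below, where 23.9% and 23.2% of all genes tested were so placed. The initiation factor gene Mtif3 and the elongation factor gene Tsfm had log2 fold changes of 0.57 (SE 0.20) and 0.56 (SE 0.19), and the initiation factor gene Mtif2 and the release factor gene Mtrf1 of -0.62 (SE 0.23) and -0.56 (SE 0.29). With the trends removed these stood at 0.34, 0.57, -0.22 and -0.26. Of 25 assembly and ribosomal RNA modification factors, 12 lay above and 3 below. With the trends removed 8 lay above and 7 below (17.2% and 18.6% of all genes), and the median went from 0.30 to 0.0037. Malsu1, which keeps the large subunit from joining too early, counted 413, 351 and 370.2 in WT and 672 and 746 in KO, a log2 fold change of 0.91 (SE 0.23, limma adjusted p = 0.0818, DESeq2 adjusted p = 0.00455). Rpusd3 was at 0.97 (SE 0.32), and the large subunit GTPase gene Gtpbp10 and the ribosomal RNA-binding gene Fastkd2 at -1.05 (SE 0.35) and -1.01 (SE 0.38). With the trends removed, Malsu1 stood at 1.31, Rpusd3 at 0.35, Gtpbp10 at -0.30 and Fastkd2 at -0.47. Of 17 mitochondrial aminoacyl-tRNA synthetases, 9 lay above and 2 below, and 6 and 2 with the trends removed. Aars2 was at 0.67 (SE 0.19, and -0.07 with the trends removed) and Cars2 at 0.55 (SE 0.23, and 0.67 with the trends removed). Rars2 was at -0.79 (SE 0.21, and -0.36 with the trends removed).

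Of 12 genes for mitochondrial transcription, RNA turnover and membrane insertion, 2 lay above and 4 below, against 23.9% and 23.2% of all genes tested. Polrmt, the mitochondrial RNA polymerase, counted 1173, 1372 and 1248 in WT and 1733 and 2939 in KO, a difference of 0.84 on the log2 scale (SE 0.24, adjusted p = 0.0921 by limma) that stood at 0.05 with the trends removed. Pnpt1, a ribonuclease of mitochondrial RNA, counted 1621, 1168 and 1609 in WT and 871 and 566 in KO, a difference of -1.04 on the log2 scale (SE 0.26, adjusted p = 0.0818 by limma and 0.00635 by DESeq2) that stood at -0.30 with the trends removed. Oxa1l, the membrane insertase, was at 0.31 (SE 0.21, and 0.13 with the trends removed) and Mterf1a, which has a close copy and so may share reads with it, at -0.92 (SE 0.58, and -0.27 with the trends removed). Ict1, the peptidyl-tRNA hydrolase of the large subunit, counted 897, 763 and 863 in WT and 1126 and 1019 in KO, a log2 fold change of 0.35 (SE 0.20, limma adjusted p = 0.273). Genes encoded in mitochondrial DNA were not analysed here.

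**Figure D5:**
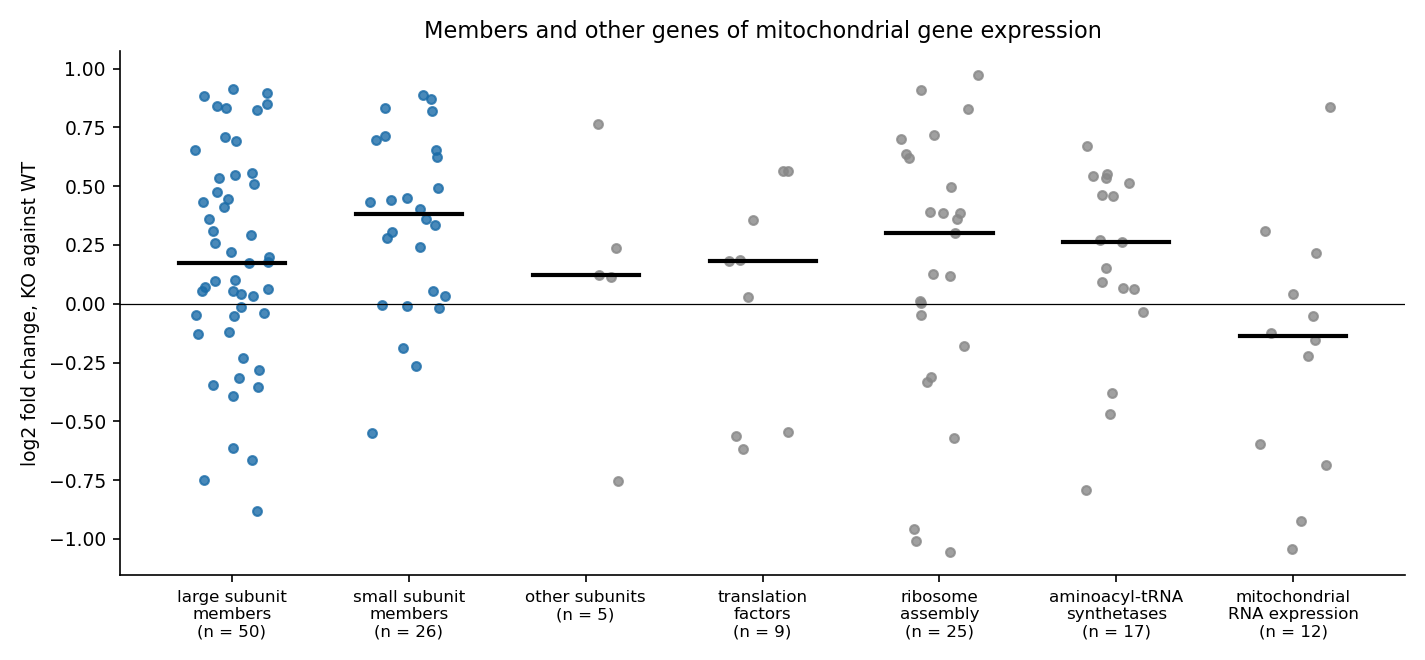
Log2 fold change (KO against WT) of each member by subunit and of the other genes of mitochondrial gene expression by list, with the number of genes under each name. Points are genes, spread sideways so as not to overlap, and bars are medians. The medians run from -0.14 for mitochondrial RNA expression to 0.38 for small subunit members.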

How the data were processed

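RNA of sorted HSCs was converted to libraries with the SMART-Seq v4 low-input kit, which does not mark strand. Per the labels, STAR, featureCounts, DESeq2 and mm10 were used; versions, the gene annotation and the strand setting of the counting were not given in the sources used here. The authors deposited normalized signal per gene and library (read counts divided by a size factor), and whole reads were recovered for 100% of values within a tolerance of 0.001. The authors' comparison table, with log2 fold changes and p-values, was not used.

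limma 3.58.1 (lmFit, eBayes with trend) was run on log2(value + 1) over 13661 genes in R 4.3.3, with Benjamini-Hochberg adjustment, 5 libraries and no covariate. edgeR 4.0.16 and DESeq2 1.42.0 were run on recovered reads. The limma step was tested on simulated data. No pair of libraries matched within counting noise (ratio of chi-square to its degrees of freedom 34.15 or higher), so none was treated as 1 library deposited again, which does not show that they are independent. Depth of 12539599 to 22779536 reads gave 70052 to 107790 member reads a library. Gene positions, exon lengths and GC content came from GENCODE M21, matched for 13515 genes tested, and start regions from RefSeq.

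Members and lists were chosen with earlier results of these data known. Named members were 8 preset genes (1 of them outside the rule, as Ict1), the 6 highest and 6 lowest fold changes, the 5 highest and 3 lowest levels per kilobase and any gene called by limma. From each other list, the 2 highest and 2 lowest fold changes were named, except 1 gene that is not reported here.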

Additional observations from a re-analysis of the deposited data

How the results depend on the processing

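Over pseudocount 10, no filter on low values, TMM scaling, edgeR, DESeq2, the replicate block, removal of length and GC trends, removal of a GC trend alone (chosen after seeing the data) and the removal of each library, the median log2 fold change of the members stayed between 0.19 and 0.35. Members called higher numbered 0 except 19 with DESeq2 and 15 without KO 2, and members called lower 0 except 3 without KO 2. Leaving out 1 library, 39 to 56 members had every remaining KO value above the remaining WT values and 0 to 21 had every one below. The counts below were 21 without KO 2 and 1 without KO 3 (1 KO library each) and 11 without WT 2. With length and GC trends removed, the count below was 1. Over all genes, KO 3 alone lay above all WT values for 40.0% and below for 38.3%, and KO 2 alone for 32.8% and 30.9%. Without WT 2 the shares over all genes were 29.2% above and 28.8% below. The shares without WT 1 or WT 3 are not given here. Of 23 named members, Mrps18a (-0.12), Mrps18b (-0.11) and Mrpl28 (-0.049) changed sign with both trends removed, as they did with the GC trend alone removed (-0.12, -0.14 and -0.072). Mrps18b (-0.21) and Mrpl18 (-0.16) changed sign without KO 2, Mrpl18 (-0.01) without WT 2 and Mrpl47 (0.005, from -0.61) without KO 3. Log2 fold changes without 1 library ranged from -0.21 to 0.32 for Mrps18b, from -0.16 to 0.24 for Mrpl18 and from -1.23 to 0.005 for Mrpl47. The other named members kept their direction in each setting.

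With the replicate number as a block, limma called 0 members (12 higher and 0 lower at an unadjusted p under 0.05, against 7.61% and 7.92% of all genes) and the median was 0.35. Only numbers 2 and 3 occur in both groups, and deviations of libraries with the same number correlated at -0.06 and -0.18 over 13661 genes, so the numbers were not taken to pair the libraries. The 3 WT and 2 KO libraries, with log2 SEs of 0.17 to 0.40, limit what could be called. The cause of the changes between settings was not tested.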

Other observations

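Members often sit head to head with another gene. For 18 of 77 members (23.4%), a gene on the opposite strand starts within 1000 bases upstream, against 10.3% of protein-coding genes tested. All 18 partners were tested, and limma called 0 of them, with 2 higher and 3 lower at an unadjusted p under 0.05, while DESeq2 called 2 higher and 3 lower (against 9.54% and 9.81% of the genes it adjusted). Their median log2 fold change was 0.03, with 9 above 0, and both KO values lay above all WT values for 6 and below for 3, against 23.9% and 23.2% of all genes tested. The member and its partner both lay above in 4 pairs: Mrpl54 with Apba3, Mrps12 with Sars2, Mrpl2 with Klc4 and Mrpl37 with Cyb5rl. Sars2, a mitochondrial seryl-tRNA synthetase, starts 172 bases from Mrps12, and their log2 fold changes were 0.54 and 0.83. In other pairs the values parted. Mrpl57 had 0.91 and its partner Ska3, a kinetochore gene 49 bases away, -0.71 with both KO values below all WT values. Mrpl49 had -0.23 and Fau, a cytosolic ribosomal protein gene 59 bases away, 0.46 with both KO values above. With length and GC trends removed, Ska3 stood at -0.34 and Mrpl57 at 1.46, whereas Fau turned to -0.24 beside Mrpl49 at -0.17, and Sars2 turned to -0.18 beside Mrps12 at 0.39. These pairs were chosen after their values were seen.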
